A study of Mus musculus with 6 samples.

Results

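The 10 genes described here encode the transcription factors, chaperones and enzymes by which a cell answers misfolded protein in the endoplasmic reticulum (ER) or a shortage of amino acids: Hspa5, Hsp90b1, Atf4, Atf6, Xbp1, Ddit3, Trib3, Asns, Chac1 and Herpud1. They were taken by name from a table of 19060 genes, and all 10 had enough counts to be tested. RNA came from the proximal end of the mouse incisor at 1 month of age, and each gene was measured in 3 control and 3 mutant samples. Controls were Fgfr1 fl/fl mice, which the labels also call wild type, and mutants were Gli1-Cre;Fgfr1 fl/fl mice. Both groups therefore carry the floxed allele, and tissue was taken 1 week after tamoxifen. The Cre is a tamoxifen-dependent CreER made from the Gli1 locus, so only Gli1+ cells and their descendants can lose Fgfr1 and the other cells of the sample keep it. The comparison asks which transcripts differ in the incisor after this loss of Fgfr1.

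The ER is where secreted proteins are folded, and the dentin-forming odontoblasts and enamel-forming ameloblasts of the incisor are secretory cells that pass large amounts of matrix protein through it. When unfolded protein collects there, 3 sensors in the ER membrane start the unfolded protein response. IRE1 splices the Xbp1 mRNA into the form that encodes an active transcription factor, ATF6 is moved to the Golgi and cut into one, and PERK phosphorylates the initiation factor eIF2 alpha, which slows translation in general while favouring translation of the Atf4 mRNA. ATF4 then drives genes of amino acid supply and, with CHOP (the product of Ddit3), the genes of prolonged stress. The kinase GCN2 reaches the same ATF4 branch when amino acids run short. Splicing of Xbp1, cleavage of ATF6 and translation of Atf4 do not show in a count of reads per gene, so the values below are transcript levels only.

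Depth differed with genotype. The controls had 31060222 to 32712448 counts and the mutants 5276557 to 11819576, and 2.18 to 2.44% of genes were at 0 in a control against 14.5 to 27.3% in a mutant. Differences also followed transcript length: the median log2 fold change of mutant over control was 0.67 for the shortest 25% of genes and -0.29 for the longest 25%. The study's methods do not say whether controls and mutants were prepared and sequenced together. A difference of preparation or run between the groups therefore cannot be told apart from that of genotype. The values below are from the upper-quartile fit, and calls that differ are also given from a fit that removes a smooth trend on transcript length and GC content in each sample. Fgfr1 itself was at 529, 924 and 434 counts per 1000000 counts of the scaled library (CPM) in the controls and at 148, 318 and 262 CPM in the mutants, so every mutant was below every control. Its log2 fold change was -1.37 (SE 0.40, adjusted p = 0.088, edgeR), and -0.72 after the length and GC correction. Markers checked the tissue: the 7 odontoblast markers summed to 31800 to 72900 CPM in controls and 29600 to 34300 CPM in mutants. Most of that sum was Col1a1, at means of 31350 and 19970 CPM, beside 3907 and 3013 CPM of Dspp. Only Col1a2 of the 7 passed an unadjusted p of 0.05 (edgeR) and 1.5-fold, and it fell (-1.12). The 7 ameloblast markers summed to 85900 to 120000 CPM in controls and 34700 to 74800 CPM in mutants. The 6 skeletal muscle markers ranged from 8.04 to 2490 CPM across controls and from 126 to 5370 CPM across mutants. The 6 erythroid markers summed to 380 to 833 CPM in controls and 926 to 2560 CPM in mutants, but went both ways. Past an unadjusted p of 0.05 (edgeR) and 1.5-fold, 2 of them rose, Hbb-bs and Hba-a2. Hba-a1 fell, from a mean of 162 CPM in controls to 39.2 CPM in mutants. The 8 dental mesenchyme markers summed to 500 to 696 CPM and 582 to 699 CPM, and the 6 macrophage markers to 131 to 431 CPM and 310 to 414 CPM. In such bulk samples fewer cells of a type and less RNA per cell cannot be told apart.

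Of the 10 genes, 1 passed an unadjusted p of 0.05 with a change over 1.5-fold, and it fell: Asns. None of the 10 rose at that threshold, where 10.9% of all 15826 genes tested rose and 8.92% fell. None reached an adjusted p of 0.05 in the edgeR quasi-likelihood fit, where 6.79% of all genes did, and DESeq2 called 1 of the 10 at that level, again Asns. Asns was also the only one whose samples did not overlap between the groups, all mutants lying below all controls as they did for 16.3% of all genes. None had all mutants above all controls, which 14.1% of genes had. The median log2 fold change of the 10 was -0.35 beside -0.04 for all genes. Together they made up 0.162 to 0.167% of the unscaled total counts in the controls and 0.0997 to 0.148% in the mutants. Most of these counts came from Hspa5 and Hsp90b1. With total counts as the scale, the median log2 fold change of all genes was itself -0.30, and that of the 10 was -0.62.

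**Figure D1:**
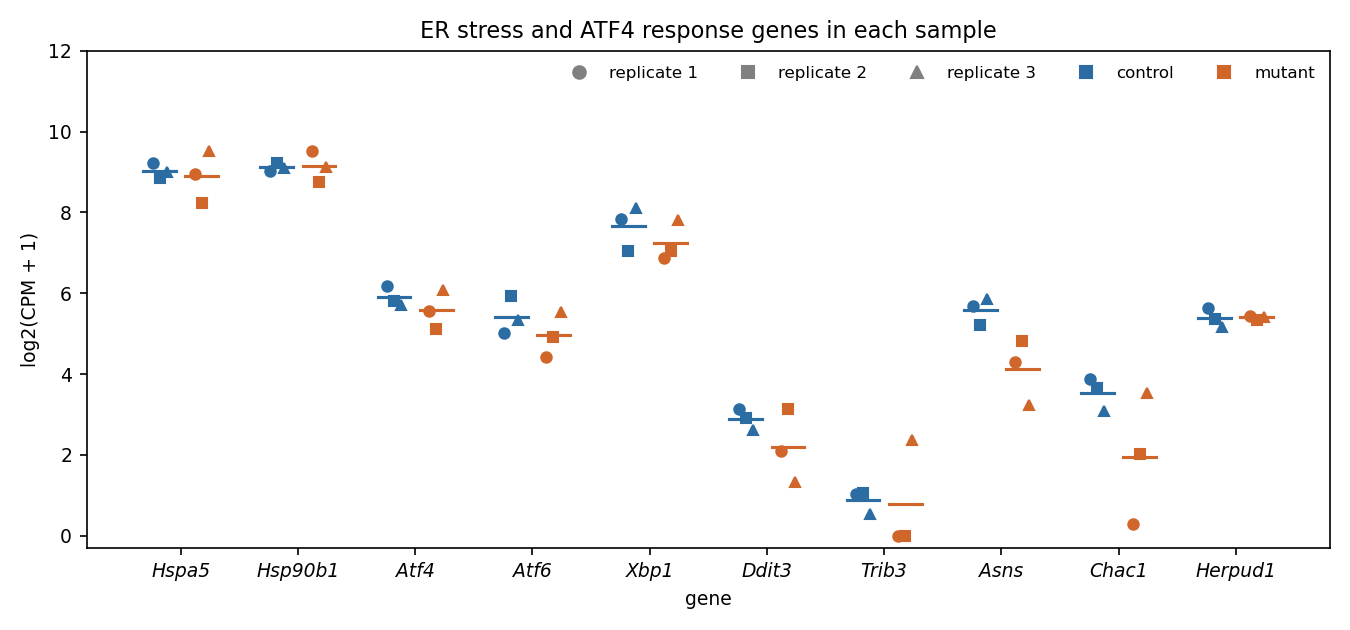
Level of each of the 10 genes in each sample as log2(CPM + 1), by gene; circles, squares and triangles are replicates 1, 2 and 3, blue is control, orange is mutant, and the line is the group mean. Asns is the gene whose mutant points, 8.46 to 27.2 CPM, all lie below the control points, 35.9 to 57.2 CPM.

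The abundant members are the chaperones of the ER lumen. Hspa5 encodes BiP, the HSP70 chaperone that binds unfolded chains and holds the 3 sensors inactive. Its level was 594, 461 and 512 CPM in the controls and 496, 302 and 728 CPM in the mutants. The mutants spanned a 2.41-fold range that enclosed all controls, themselves within 1.29-fold, and the log2 fold change was -0.04 (SE 0.35, 95% interval -0.84 to 0.76, adjusted p = 0.97). Hsp90b1 encodes GRP94, the HSP90 chaperone of the ER, and stood at 523, 598 and 551 CPM in the controls and 738, 432 and 560.1 CPM in the mutants. The groups overlapped here too, with a log2 fold change of 0.05 (SE 0.28, 95% interval -0.60 to 0.69, adjusted p = 0.96). The signs of both values turned under other settings, to 0.03 for Hspa5 and -0.16 for Hsp90b1 after the length and GC correction, so no direction is given for either gene. The ratio of Hspa5 to Hsp90b1 within a sample was 1.14, 0.771 and 0.929 in the controls and 0.671, 0.700 and 1.30 in the mutants, the third mutant standing above all other samples.

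Both chaperone genes carry the ER stress element (ERSE), the promoter sequence through which ATF6 and XBP1 are known to act with NF-Y. The motif was searched as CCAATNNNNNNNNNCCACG on both strands of RefSeq windows from 250 bases before to 50 bases after the transcription start (GRCm38.p6), and 39 of 32851 windows, 0.119%, held it. Of the 10 members 9 had a window, all but Atf6. The matches are shown because this element is what links the chaperone genes to ATF6 and XBP1. Capitals mark the motif or its reverse complement, and each is written along the strand of its gene.
Hspa5 ERSE, chr2:34772020-34772048, + strand: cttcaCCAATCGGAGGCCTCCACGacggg
Hsp90b1 ERSE, chr10:86705633-86705661, - strand: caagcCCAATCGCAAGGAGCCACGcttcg
Hsp90b1 reverse ERSE, chr10:86705528-86705556, - strand: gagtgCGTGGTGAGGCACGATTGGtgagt
Herpud1 ERSE-II, chr8:94386372-94386392, + strand: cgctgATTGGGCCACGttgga
The last is the shorter ERSE-II, searched as ATTGG, 1 base of any kind and CCACG, which 12 windows (0.0365%) held. A match is a description of the letters, not evidence of binding. The core of the XBP1 element (UPRE), TGACGTGG, was in 222 windows, 0.676%, and in none of the members with a window.

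Herpud1 encodes an ER membrane protein that brings substrates to the ubiquitin ligase of ER-associated degradation. It was at 48.9, 39.9 and 35.0 CPM in the controls and 42.3, 39.6 and 41.8 CPM in the mutants. The mutants lay inside the control range, within 1.07-fold of each other, and the log2 fold change was 0.00 (SE 0.25, 95% interval -0.58 to 0.57). Of the 10 genes this was the narrowest interval, and it leaves room for a change of up to about 1.5-fold either way (0.671 to 1.49 times the control level).

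The other transcription factors, Xbp1, Atf6 and Atf4, stand for the 3 branches. Xbp1, the target of IRE1, was at 228, 131 and 274 CPM in the controls and 117, 132 and 223 CPM in the mutants. The second control sample sat with the lower mutants, and the log2 fold change of -0.43 (SE 0.36, adjusted p = 0.60) was within the spread between samples. Atf6 was at 31.2, 59.8 and 39.2 CPM in the controls and 20.5, 29.4 and 45.6 CPM in the mutants, with a log2 fold change of -0.44 (SE 0.39, adjusted p = 0.61). Atf4 was at 71.3, 55.4 and 51.4 CPM in the controls and 46.5, 33.8 and 67.1 CPM in the mutants, with a log2 fold change of -0.27 (SE 0.31, adjusted p = 0.71). In both genes the third mutant was the highest mutant and lay inside the control range, and the first and second mutants lay below every control. The value of all 3 genes was below 0 under each of the 15 alternative settings, and none passed the threshold under any of them.

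Ddit3, Trib3 and Chac1 mark the prolonged ATF4 response. Ddit3 encodes CHOP, the factor linked to death of stressed cells. It was at 7.81, 6.54 and 5.17 CPM in the controls, from 179 to 268 counts, and at 3.27, 7.86 and 1.51 CPM in the mutants, from 15 to 92 counts. The second mutant was the highest of all 6 samples and the third the lowest, and the log2 fold change was -0.62 (SE 0.85, adjusted p = 0.77), or -1.17 after the length and GC correction. Chac1 encodes an enzyme that breaks down glutathione, and was at 13.8, 11.5 and 7.48 CPM in the controls and 0.218, 3.07 and 10.5 CPM in the mutants. The first mutant rests on 1 count, the second lies below the controls and the third among them, a 48.0-fold range within one genotype (log2 fold change -1.23, SE 1.06, adjusted p = 0.61). Trib3 encodes a pseudokinase that restrains AKT and ATF4, and was the scarcest member, at 1.05, 1.07 and 0.462 CPM in the controls. It had no counts in the first and second mutants and 41 counts, 4.13 CPM, in the third. By counting error alone, a count of 0 allows up to 3 counts, or 0.655 and 0.256 CPM in those 2 samples. On that bound the first could not be told from the lowest control at this depth and the second was below it. The third mutant carried more Trib3 than any other sample, and without it both Trib3 and Chac1 passed the unadjusted threshold as lower in the mutants, with adjusted p of 0.069 and 0.18.

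Asns encodes asparagine synthetase, an enzyme whose transcription ATF4 is known to raise when amino acids are short. It was at 50.8, 35.9 and 57.2 CPM in the controls and 18.6, 27.2 and 8.46 CPM in the mutants. The mutants averaged 18.1 ± 9.35 CPM and the controls 48.0 ± 10.9 CPM (SD, n = 3 each), so the control mean was 2.66 times the mutant mean. The fitted log2 fold change was -1.41 (SE 0.45, adjusted p = 0.11, edgeR), or 0.377 times the control level with a 95% interval of 0.185 to 0.766. The value was -1.49 after the length and GC correction (adjusted p = 0.12). Over the 15 alternatives it ranged from -1.85 to -1.08 and its adjusted p from 0.032 to 0.39, the lowest from DESeq2, and without the third control it no longer passed the unadjusted threshold, at -1.26. The summed ameloblast markers were also lower in every mutant than in every control, with Amtn and Odam the 2 of 7 that rose and none that fell at the threshold. Their part in the Asns value was not tested.

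**Figure D2:**
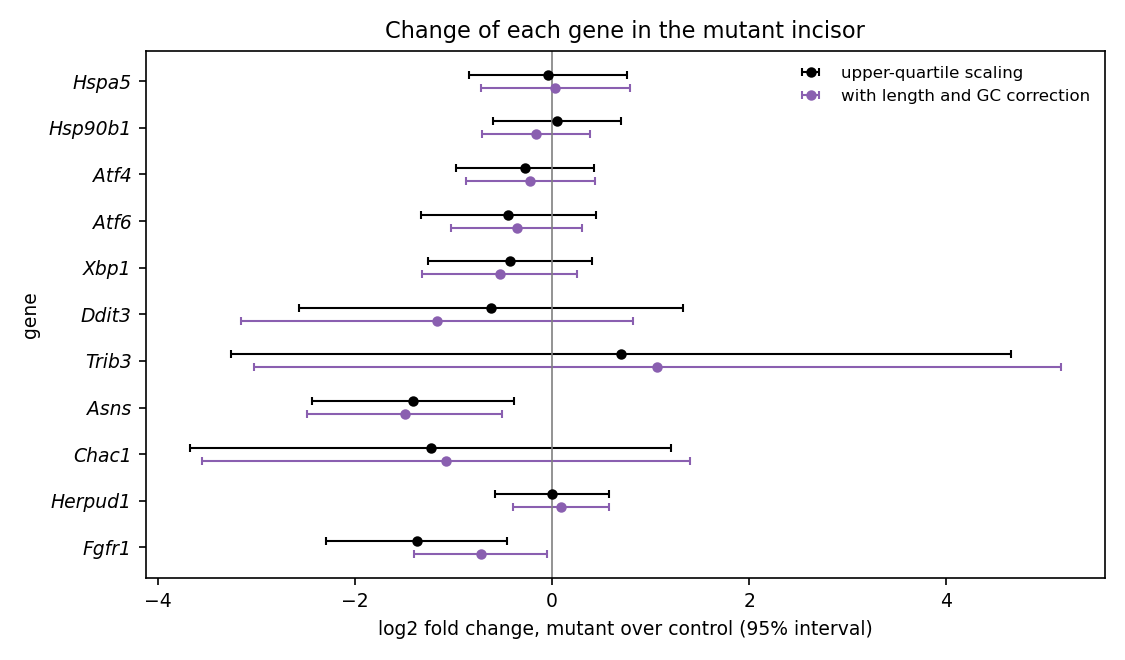
Log2 fold change of mutant over control for each of the 10 genes and Fgfr1, with 95% intervals, from the upper-quartile fit (black) and after the length and GC correction (purple). Asns is the member whose intervals lie below 0, at -1.41 and -1.49, and the interval of Trib3 is the widest.

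Per unit of transcript length, as TPM (CPM divided by the median length of a gene's transcripts and rescaled to a fixed sum), the controls gave an order of levels. Hsp90b1 (335 ± 91.3 TPM), Hspa5 (276 ± 29.6 TPM) and Xbp1 (225 ± 46.6 TPM; SD, n = 3) came first, and each overlapped its neighbour. Atf4 followed at 57.4 ± 11.3 TPM, above Asns at 39.1 ± 3.36 TPM and Herpud1 at 36.2 ± 7.98 TPM, which overlapped. Ddit3 (12.3 ± 3.29 TPM), Chac1 (11.3 ± 3.98 TPM) and Atf6 (10.5 ± 5.79 TPM) could not be put in order, and Trib3 was last at 0.734 ± 0.378 TPM. In the mutants Asns ranked behind Herpud1 and Chac1 behind Atf6, the other ranks being the same. Spread between samples was wider in the mutants for 8 of the 10 genes, 80.0%, beside 74.5% of all genes, with a median SD of log2(CPM + 1) of 0.27 in controls and 0.60 in mutants against 0.29 and 0.60 for all genes.

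Around the 10 genes stand 118 others of the same pathways, taken as lists by function. Of these, 13 rose and 22 fell past the unadjusted threshold and 7 reached an adjusted p of 0.05, with a median log2 fold change of -0.16. After the length and GC correction 6 rose, 10 fell and 1 reached that adjusted p, while over all 15718 genes in that fit 1083 rose, 1175 fell and 141 reached it. The split moved with scaling, to 10 higher and 27 lower under TMM and to 8 higher and 35 lower with total counts alone. Over all genes, 1726 rose and 1411 fell, which became 1518 and 1733 under TMM and 1253 and 2335 with total counts, as these scalings moved the median of all genes to -0.13 and -0.30.

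Among the 8 other sensors and transducers of the unfolded protein response, 3 fell and none rose, with a median of -0.68. Mbtps1, the site-1 protease that makes the first cut in ATF6, was at 236, 292 and 245 CPM in the controls and 123, 134 and 95.6 CPM in the mutants (log2 fold change -1.13, SE 0.24, adjusted p = 0.046), and -0.62 after the correction. Atf6b, the paralogue of Atf6, went from 63.0, 61.1 and 77.9 CPM to 35.1, 20.4 and 38.3 CPM (-1.11, SE 0.30, adjusted p = 0.072), a call lost after the correction at -0.47. Creb3l2, a related membrane-bound factor of secretory cells, was the third (-0.83, adjusted p = 0.11). After the correction Mbtps1 and Creb3 passed as lower. The sensors themselves did not pass: Ern1, encoding IRE1, stood at -0.74 (SE 0.43) and Eif2ak3, encoding PERK, at -0.62 (SE 0.49), and at -1.14 and -0.27 after the correction.

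Of 18 further ER chaperones and folding enzymes 2 rose and 1 fell, and the median was 0.07. Dnajb9, an HSP40 cofactor of BiP, was at 45.2, 28.7 and 46.4 CPM in the controls and 85.3, 78.2 and 112 CPM in the mutants (1.19, SE 0.28, adjusted p = 0.046). Fkbp2, a prolyl isomerase of the ER, was the other that rose (1.03, adjusted p = 0.11), and Hyou1, the nucleotide exchange factor of BiP, fell (-0.75, adjusted p = 0.18). All 3 calls were lost after the length and GC correction, at 0.58, 0.33 and -0.18. Calr and Canx, the lectin chaperones of glycoprotein folding, did not pass at 0.14 (SE 0.34) and 0.41 (SE 0.30), nor did the disulphide isomerases Pdia3 and P4hb at 0.14 (SE 0.28) and -0.09 (SE 0.35).

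Of 18 genes of ER-associated degradation 5 fell and none rose, with a median of -0.27, and 1 fell after the correction. That 1 was Derl3, a derlin of the retrotranslocation complex, which was at 2.39, 1.43 and 3.44 CPM in the controls and had no counts in any mutant. Against 3 counts over the mutant group, 0.114 CPM, the mutants were at least 21.1-fold lower by counting error alone. A 0 in a mutant need not follow the level of a gene. Eif2ak1, for example, was at 0 in the first mutant and at 29.2 and 31.8 CPM in the other mutants. Derl3 is known from secretory cells such as plasma cells. Of 4 plasma cell markers in the table Jchain was likewise at 0 in all mutants and fell, and the other 3 were not called, and Mzb1 and Tnfrsf17 were not analysed here. The list summed to 448 to 570 CPM in controls and 334 to 544 CPM in mutants, nearly all of it Sdc1 (means of 480 and 405 CPM), which epithelium also expresses. The part of such cells in the Derl3 value was not tested. Nploc4, a cofactor of the segregase VCP, fell from 47.4, 56.9 and 62.2 CPM to 34.5, 22.2 and 21.1 CPM (-1.10, SE 0.30, adjusted p = 0.068), a call that was lost at -0.55.

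The 15 genes of ER translocation and signal peptide cleavage had the highest median of the lists, 0.77, with 8 that rose and 1 that fell. They encode short transcripts, with a median length of 998.5 bases beside 2532 for all genes, and after the length and GC correction their median was 0.16 with 1 rise and 1 fall, the latter of Ssr2. The rise was Sec61g, the gamma subunit of the translocon, at 5.59, 1.70 and 3.76 CPM in the controls and 67.2, 45.6 and 49.6 CPM in the mutants (3.87, SE 0.50, adjusted p = 0.0082), and still 2.74 when corrected. Sec61b of the same complex was at 139, 50.5 and 110 CPM in the controls, far above Sec61g. The estimated counts of Sec61g were not whole in any sample, as for 51.69 to 52.95% of genes in a control. How such reads were assigned is not given, and its part in this value was not tested. Spcs1 of the signal peptidase (1.14, adjusted p = 0.057) and Sec61a1, the channel subunit (-0.90, adjusted p = 0.093), lost their calls at 0.41 and -0.43.

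**Figure D3:**
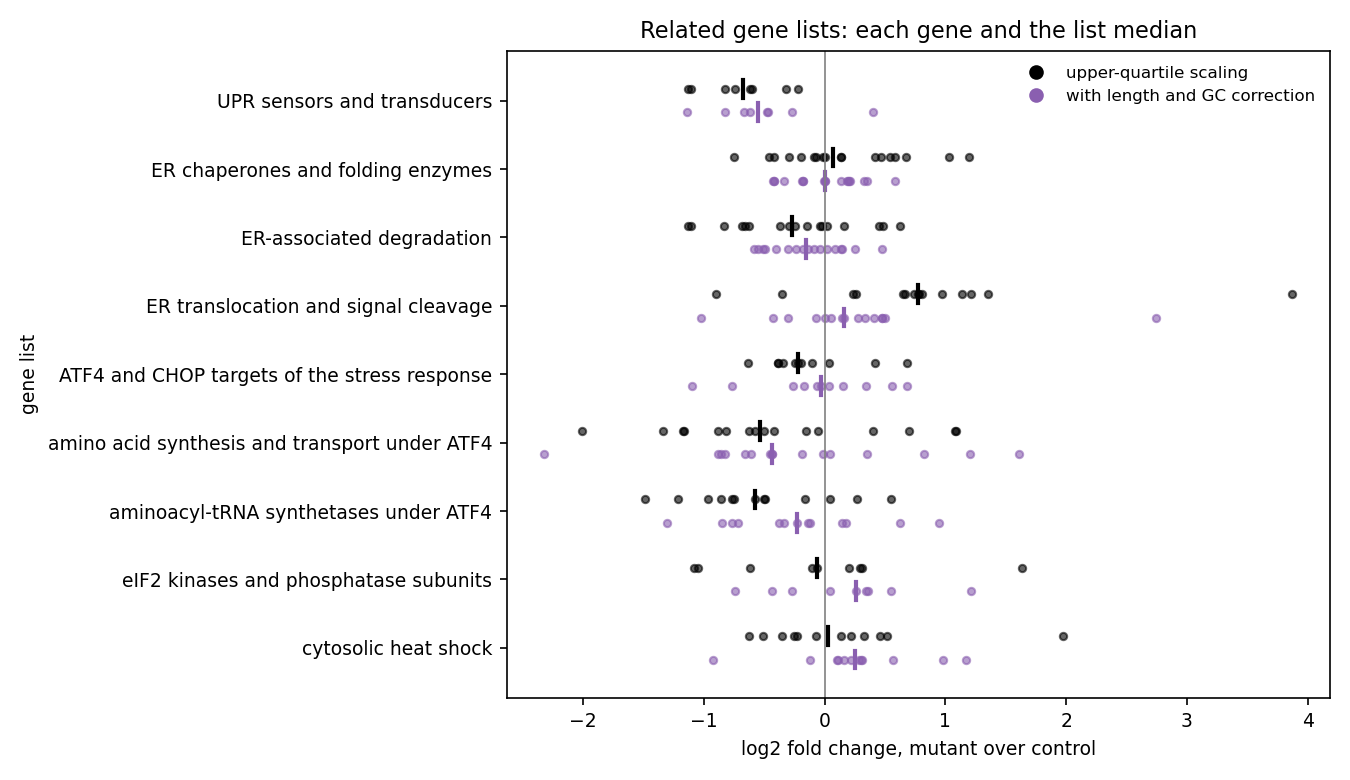
Log2 fold change of mutant over control for each gene of the 9 lists (points) and the list median (bars), from the upper-quartile fit (black) and after the length and GC correction (purple). Derl3, which has no counts in the mutants, counts in its median but is not drawn; the translocation list shows the largest shift between the fits, from a median of 0.77 to 0.16.

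The ATF4 branch was followed in 3 lists. Of 11 further ATF4 and CHOP targets of the stress response 1 rose and none fell, with a median of -0.22; Gdf15 and Fgf21 of that list were not analysed here. The riser was Cebpg, the dimer partner of ATF4, at 26.5, 22.6 and 23.8 CPM in the controls and 49.3, 30.8 and 37.2 CPM in the mutants (0.69, SE 0.30, adjusted p = 0.25), and the call was lost under 12 of 15 alternatives. Atf3, a stress-induced factor, had counts in the first mutant only (3.27 CPM) and was at 0.954 to 1.46 CPM in the controls.

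Genes of amino acid synthesis and transport, the list to which Asns is closest in function, gave 4 that fell and none that rose of 16, with a median of -0.54. Slc7a11, the cystine transporter of system xc-, was at 28.1, 20.7 and 24.6 CPM in the controls and 3.49, 4.95 and 9.57 CPM in the mutants, every mutant below every control as for 16.3% of all genes. Its log2 fold change was -2.01 (SE 0.51, adjusted p = 0.056), and -2.32 after the correction. Aldh18a1 and Pycr1, which make proline from glutamate, stood at -1.17 (SE 0.30, adjusted p = 0.060) and -1.18 (SE 0.44, adjusted p = 0.18), and Phgdh, the first enzyme of serine synthesis, at -0.88 (SE 0.28, adjusted p = 0.11). Of these 4, Slc7a11 and Phgdh kept their calls after the correction. Psat1, the next enzyme of the serine path, stood the other way, at 52.8, 24.9 and 39.7 CPM in the controls and 43.4, 75.8 and 71.0 CPM in the mutants (0.70, SE 0.35, adjusted p = 0.32), and passed the unadjusted threshold after the correction at 0.82.

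Of 13 aminoacyl-tRNA synthetase and tRNA export genes 6 fell and none rose, with a median of -0.57. Tars, which charges threonine tRNA, was at 40.8, 39.6 and 43.5 CPM in the controls and 16.6, 15.1 and 12.6 CPM in the mutants (-1.49, SE 0.29, adjusted p = 0.042), and -1.31 after the correction. Lars, for leucine, was at 50.1, 53.4 and 53.5 CPM and at 24.4, 23.2 and 32.4 CPM (-0.97, SE 0.26, adjusted p = 0.068). In both, named for their small p, every mutant was below every control, as for 16.3% of all genes. After the correction 3 fell, Tars, Lars and Xpot, and Sars rose (0.63), with a list median of -0.23.

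**Figure D4:**
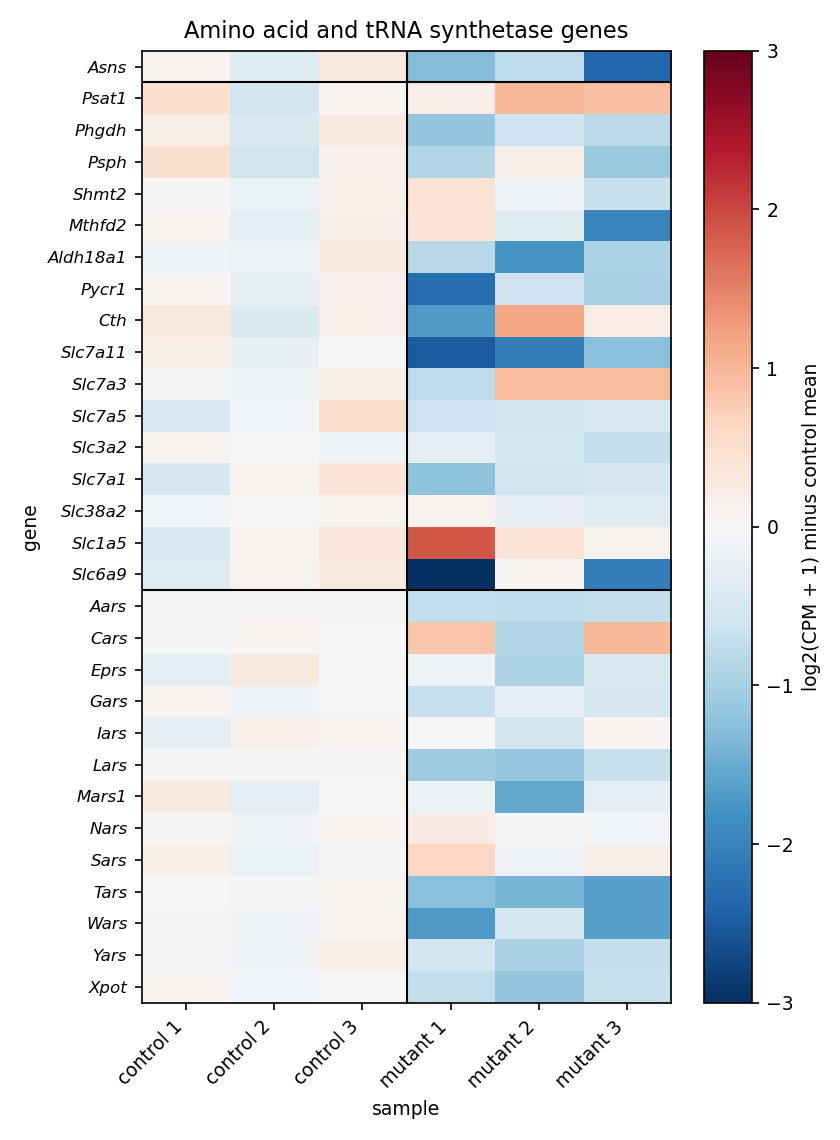
Difference of log2(CPM + 1) from the control mean for Asns (top row), 16 amino acid genes and 13 tRNA genes (rows) in each sample (columns), with values past the ends of the colour scale in its end colour. Asns, Slc7a11 and Tars are below the control mean in all 3 mutants, while Psat1 is above it in all 3.

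ATF4 acts with C/EBP partners at the CARE element, whose core was searched as TGATGNAA on both strands. It is short and was in 1304 windows, 3.97%, and in the windows of Asns, Chac1, Herpud1 and Trib3, the last after the transcription start. The sites before the start in members are shown with those of Slc7a11 and Tars, the genes of their lists with the smallest p, capitals again marking the core or its reverse complement.
Asns CARE core, chr6:7693220-7693237, - strand: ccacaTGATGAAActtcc
Chac1 reverse CARE core, chr2:119351044-119351061, + strand: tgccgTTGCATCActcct
Herpud1 reverse CARE core, chr8:94386312-94386329, + strand: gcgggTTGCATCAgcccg
Slc7a11 CARE core, chr3:50443667-50443684, - strand: gtggcTGATGCAAacctg
Slc7a11 reverse CARE core, chr3:50443648-50443665, - strand: agaatTTGCATCAtcatg
Tars reverse CARE core, chr15:11399661-11399678, - strand: tcccgTTGCATCAgctgg
The reverse core TTGCATCA stands in the printed sites of Chac1, Herpud1, Slc7a11 and Tars. Slc7a11 and Tars were printed for their small p, so their fall was set by that choice. Among the other pathway genes the same letters stood before the start of Aars, which fell (-0.75). They also stood before the start of Atf3, Nupr1 and Vldlr, which were not called (-0.22, 0.03 and -0.24). Of the 307 tested genes with this core in a window 8 rose (2.61%) and 31 fell (10.1%), with a median of -0.11, beside 8% and 9.15% of the 11298 tested genes with a window and a median of -0.09. The 28 genes with an ERSE or ERSE-II gave 3 that rose and 4 that fell (median -0.01), and the 114 with the UPRE core 8 and 18 (median -0.22).

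Upstream of ATF4, 9 genes of eIF2 phosphorylation gave 1 rise and 1 fall. Eif2s1, which encodes eIF2 alpha, was at 63.6, 32.0 and 55.8 CPM in the controls and 170, 107 and 192 CPM in the mutants (1.63, SE 0.34, adjusted p = 0.046), and 1.21 after the correction. Gcn1, the activator of GCN2, was at 47.0, 82.1 and 64.8 CPM and at 27.5, 19.8 and 44.1 CPM (-1.08, SE 0.36, adjusted p = 0.13), a call lost at -0.44. The transcripts of the kinases did not pass the test. Eif2ak4 (GCN2) stood at -0.06 (SE 0.50) and at 0.36 when corrected, and Eif2ak2 at 0.31 (SE 0.53). Eif2ak1, another of these kinases, stood at -1.05 (SE 1.05) and at -0.74 when corrected. Its level was 41.2, 46.1 and 40.9 CPM in the controls and 0, 29.2 and 31.8 CPM in the mutants. Every mutant was below every control, as for 16.3% of all genes. Ppp1r15a, the phosphatase subunit GADD34 induced by ATF4 and CHOP, stood at -0.10 (SE 0.53), and at 0.34 when corrected.

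Heat shock genes served as a neighbouring list, most of them cytosolic but with the mitochondrial Hspe1 and Hspd1 among them. Of its 12 genes 1 rose and 1 fell, with a median of 0.03. Hspe1, the mitochondrial co-chaperonin, was at 122, 42.7 and 99.5 CPM in the controls and 324, 292 and 419 CPM in the mutants (1.97, SE 0.40, adjusted p = 0.044), and 1.17 when corrected; 6 annotated pseudogene copies could share its reads. Hspb1, the small heat shock protein HSP27, fell (-0.63, SE 0.27, adjusted p = 0.24), and stood at -0.92 when corrected. After the correction 2 of the 12 rose, Hspe1 and Hspa1a (0.98), the latter from a close pair with Hspa1b that can share reads. Hspa8, Hsp90aa1 and Hsp90ab1, the cytosolic counterparts of Hspa5 and Hsp90b1, stood at 0.46 (SE 0.35), 0.51 (SE 0.34) and -0.35 (SE 0.26).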

How the data were processed

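The authors sequenced single reads from the 6 libraries, and the study's methods name Partek Flow for trimming and alignment to mm10, while the submitters' processing notes name TopHat2 2.0.8. The counting step, its strand setting and the filter on genes are not given in the sources used here. The deposited values are estimated counts per gene, not all whole, and were rounded. Scaling was by the upper quartile, the study's choice, and the test was edgeR 4.0.16 quasi-likelihood (R 4.3.3), two-sided, over the 15826 of 19060 genes that passed filterByExpr (minimum count 10, total 15), with Benjamini-Hochberg adjustment over all of them. Calls use p under 0.05 and 1.5-fold. DESeq2 1.42.0 and limma 3.58.1 were alternatives, and the fits were tested on simulated data. CPM were per effective library. Lengths, GC content and gene positions came from GENCODE M21 (GRCm38), where 18637 symbols matched directly, 193 through a synonym and 230 did not. The length and GC correction was a spline with 4 degrees of freedom per sample.

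The 10 members and all lists were chosen with earlier results of these data known. From each list, the text names up to 2 called genes a direction, by smallest p, and genes named beyond them were chosen after their values were seen. No source says that samples of a group came from separate mice, so p-values measure the spread between samples. Of the 10 genes, 3 (Hsp90b1, Ddit3, Herpud1) overlap a gene on the opposite strand, whose reads cannot be told apart. Floors of 3 counts cover counting error only. Replicate numbers were checked for pairing.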

Additional observations from a re-analysis of the deposited data

How the results depend on the processing

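Each result was recomputed under 15 alternatives, except that Trib3 and Derl3 had too few counts for the filter at a mean of 50 counts. The number of the 10 genes that fell, 1, was 0 when the third control and 3 when the third mutant was left out, the extremes over the 6 samples, and DESeq2 put 1 at an adjusted p under 0.05. Pathway genes that rose numbered 8 with total counts alone, 6 after the length and GC correction and 8 to 17 with 1 sample left out (8 without the second control or the third mutant). Those that fell numbered 35, 10 and 13 to 26 (13 without the third control). Reversed signs came from values near 0 or from Trib3. Hspa5 was 0.034 after the correction and -0.40 to 0.22 with 1 sample left out. Hsp90b1 was -0.050 under TMM, -0.24 with total counts, -0.16 after the correction and -0.18 to 0.21. Herpud1 was 0.0054 with limma-voom, 0.089 after the correction and -0.11 to 0.14. Trib3 was -1.62 with limma-voom and -7.40 to 1.29, fitted values that depend on the prior count where mutants are at 0; the cause was not tested. With the replicate number as a block (replicate block) Trib3 was -3.09, Herpud1 0.014 and Asns -1.52, and 508 genes in all reached an adjusted p of 0.05 in place of 1074. The study's methods speak of 3 pairs of samples, and the sample titles do not say which samples belong together. Deviations of same-numbered samples correlated at 0.047, 0.0094 and 0.055, and the numbers were not taken to pair samples. Other pairings were not checked. Beside these and Asns without the third control, no member changed its call or sign. Of the 19 named list genes 10 lost their call after the correction. Hyou1 also lost it without the third control, the first mutant or the second mutant, Gcn1 without the second control or the second mutant, Hspb1 with the control counts thinned and without any sample but the second control and the first mutant, and Cebpg without any sample but the second mutant. Over all genes, the count that fell ranged from 776 to 2826 with 1 sample left out and the count at an adjusted p of 0.05 from 76 to 606. Ddit3, Trib3 and Chac1 rest on at most 104 counts in any mutant.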
